A study of Mus musculus with 6 samples.

Results

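Of 49315 mouse genes counted in granulosa cell libraries, 6 stood well above all other libraries in Jmjd3 knockout libraries 1 and 2 but not 3. Described here are 5 of them: Tmem56, Nptx1, Cdkn2b, Ccn5 and Slc46a3. A gene entered the set when its level in CPM, the count scaled to the total of its library, was at least 2 in both KO1 and KO2, and when each of these was at least 2 times the highest level among KO3, WT1, WT2 and WT3. The measured levels of all 6 libraries therefore chose the genes, and their levels and their differences between KO and WT are given as descriptions. At least 2 CPM in both KO1 and KO2 was reached by 12936 genes. In 1388 of those (10.7%) both libraries were above the other 4, and in 9 (0.0696%) both were at least 2 times as high. Of the 9, Akr1c18, Onecut2 and Inpp5j were left out by name before any description, which left the 6.

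The series measured RNA in granulosa cells, the somatic cells that surround the oocyte in the follicle, by sequencing total RNA from freshly isolated cells. One group of 3 libraries came from mice with a granulosa cell-specific knockout of Jmjd3 and the other group of 3 libraries came from wild-type mice, all C57BL/6J females of 8 to 9 weeks. Jmjd3, whose gene symbol is Kdm6b, is a demethylase that removes methyl groups from lysine 27 of histone H3. The driver of the recombinase, the excised exons, the oestrous stage, any hormone treatment and the animals behind each library are not given in the labels. The p-values below therefore reflect variation among these libraries alone, part of which may be technical.

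Libraries held between 42379018 counts (KO2) and 49901493 counts (WT1), so that 1 CPM stood for 42.4 to 49.9 counts. Kdm6b itself was counted at 62.4, 68.8 and 109 CPM in KO1, KO2 and KO3, against 74.9, 66.4 and 68.0 CPM in WT1, WT2 and WT3. The knockout libraries did not stand below the wild-type ones for this gene, and KO3 was the highest of all. Counts over the whole gene can include reads from exons that a deletion leaves in place, so the count neither checks nor contradicts the labels, and "KO" below means a library labelled KO. Markers of granulosa cells were present at summed levels of 21326 to 28412 CPM in KO and 18706 to 22420 CPM in WT libraries over 18 genes. KO3 stood apart from KO1 and KO2. Areg, a ligand of the EGF receptor made around ovulation, was at 0.946, 0.401 and 235 CPM in KO1, KO2 and KO3, against 0.421, 0.505 and 0.489 CPM in WT1, WT2 and WT3. Ereg, a second such ligand, reached 254 CPM in KO3, and Pgr, the progesterone receptor, 23.6 CPM, while neither exceeded 1.35 CPM in any other library. The log2 differences and edgeR calls of the 5 genes are therefore given with and without KO3.

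Around ovulation, granulosa cells leave the cell cycle. They turn into the luteal cells of the corpus luteum, which make progesterone, while blood vessels grow into the tissue. Cell cycle exit in many cells depends on inhibitors of cyclin-dependent kinases, of which Cdkn2b encodes one, p15. The 5 genes have no common textbook pathway. They encode a membrane protein with a lipid-handling domain (Tmem56), a secreted synaptic pentraxin (Nptx1), a kinase inhibitor (Cdkn2b), a secreted matrix-associated protein (Ccn5) and a lysosomal transporter (Slc46a3).

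The stretches of 250 bases before the annotated start were available for 3 of the 5 genes, for the start that RefSeq gives: Tmem56 (listed by RefSeq under the symbol Tlcd4), Cdkn2b and Slc46a3. They are shown because genes with the same pattern over libraries can be read beside each other, and they come from RefSeq on GRCm38.p6, in the direction of transcription, all 3 from the minus strand. The Tmem56 window lies 19508 bases inside the span over which the gene is annotated for the counts, so it is not the stretch before the outermost start. Capitals mark the motifs found: GGGCGG (the GC box) in Tmem56 and Slc46a3, TGACGTCA (the cyclic AMP response element) in Cdkn2b, and TTCNNNGAA (a STAT site) in Slc46a3.
Tmem56 (chr3:121263341-121263590): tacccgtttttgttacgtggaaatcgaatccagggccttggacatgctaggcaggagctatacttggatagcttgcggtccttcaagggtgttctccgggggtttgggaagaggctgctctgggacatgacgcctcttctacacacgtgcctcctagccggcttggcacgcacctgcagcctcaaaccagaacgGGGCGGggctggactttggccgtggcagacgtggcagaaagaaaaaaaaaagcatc
Cdkn2b (chr4:89311033-89311282): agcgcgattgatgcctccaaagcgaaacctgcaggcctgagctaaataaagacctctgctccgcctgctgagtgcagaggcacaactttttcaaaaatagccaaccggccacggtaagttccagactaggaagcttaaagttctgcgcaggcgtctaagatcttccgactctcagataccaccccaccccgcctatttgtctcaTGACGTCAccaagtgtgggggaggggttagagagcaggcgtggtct
Slc46a3 (chr5:147894816-147895065): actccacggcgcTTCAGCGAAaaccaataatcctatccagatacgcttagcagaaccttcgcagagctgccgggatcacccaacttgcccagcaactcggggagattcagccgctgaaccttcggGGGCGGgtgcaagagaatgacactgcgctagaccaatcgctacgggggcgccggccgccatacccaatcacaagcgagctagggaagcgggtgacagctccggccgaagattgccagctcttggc

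The Cdkn2b element lay 46 bases before the start, and TGACGTCA occurs on either strand in 1.55% of the 32851 RefSeq windows of the same length. The GC box lay 56 bases before the start of Tmem56 and 125 bases before that of Slc46a3, and 32.7% of all windows hold one. The STAT site lay 238 bases before the start of Slc46a3, and 7.02% of all windows hold one. No motif was shared by all 3. Another 5 sequences were searched on both strands, and none was found in these windows. They were the steroidogenic factor (NR5A) site AAGGTCA, held by 4.08% of all windows, the C/EBP site TTGCNNAA, held by 9.56%, and the AP-1 site TGANTCA, held by 6.75%. Also searched were the site of GATA factors, AGATAA, held by 9.99% of all windows, and the core promoter box TATAAA, held by 12.4%. A second Tmem56 window, starting 173 bases further downstream, also held only GC boxes, and the motifs were chosen after the genes were known.

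Tmem56, a multi-pass membrane protein with the TLC domain it shares with the ceramide synthases, had the widest gap of the 5. Its level was 87.8, 56.4 and 11 CPM in KO1, KO2 and KO3, against 15.4, 10.1 and 12 CPM in WT1, WT2 and WT3. KO3 sat between the WT libraries, and the lower of KO1 and KO2 was 3.67 times the highest other library, WT1. The mean was 51.7 ± 38.6 CPM in KO and 12.5 ± 2.68 CPM in WT (SD, n = 3 each). In edgeR's fit across all genes the log2 difference was 2.12 ± 0.83 (SE) over all libraries and 2.59 ± 0.31 without KO3.

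Cdkn2b encodes p15, which binds CDK4 and CDK6 and keeps them from cyclin D. It was at 16.9, 10.4 and 3.90 CPM in KO1, KO2 and KO3, against 3.35, 2.99 and 1.67 CPM in WT1, WT2 and WT3. Among the 5 genes it was the one whose 3 KO libraries were all above all 3 WT libraries, and KO3 was the highest of the other 4 libraries. KO1 and KO2 stood far above KO3, the lower of them at 2.67 times its level. The means were 10.4 ± 6.52 CPM in KO and 2.67 ± 0.882 CPM in WT (SD, n = 3 each), with a log2 difference of 2.02 ± 0.61 (SE), or 2.42 ± 0.38 without KO3.

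Ccn5, formerly Wisp2, encodes a secreted protein of the matricellular CCN family that lacks the C-terminal domain of its relatives. Its level was 147, 106 and 32.3 CPM in KO1, KO2 and KO3, against 46.5, 25.5 and 28.1 CPM in WT1, WT2 and WT3. KO3 fell inside the WT range, and WT1 was the highest of the other 4 libraries, at a ratio of 2.27. The means were 94.9 ± 58.0 CPM in KO and 33.4 ± 11.5 CPM in WT (SD, n = 3 each). The log2 difference was 1.57 ± 0.65 (SE), or 1.98 ± 0.37 without KO3.

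Slc46a3 encodes a transporter of the lysosomal membrane that in human cells exports breakdown products of antibody-drug conjugates. Its level was 23.1, 15.7 and 6.14 CPM in KO1, KO2 and KO3, against 7.17, 4.73 and 7.56 CPM in WT1, WT2 and WT3. KO3 lay inside the WT range, and the highest of the other 4 libraries was WT3, at a ratio of 2.08. The means were 15 ± 8.50 CPM in KO and 6.49 ± 1.53 CPM in WT (SD, n = 3 each). The log2 difference was 1.27 ± 0.52 (SE), or 1.64 ± 0.26 without KO3.

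Nptx1 encodes neuronal pentraxin 1, a secreted protein that gathers glutamate receptors at synapses, and it was the least abundant of the 5. It received 115, 89 and 30 counts in KO1, KO2 and KO3, against 39, 33 and 19 counts in WT1, WT2 and WT3. These are 2.36, 2.10 and 0.606 CPM in KO1, KO2 and KO3, against 0.782, 0.694 and 0.387 CPM in WT1, WT2 and WT3. KO1 and KO2 were nearly level with each other, just past the minimum of 2 CPM, and KO3 lay inside the WT range. The means were 1.69 ± 0.948 CPM in KO and 0.621 ± 0.207 CPM in WT (SD, n = 3 each), with a log2 difference of 1.49 ± 0.53 (SE), or 1.90 ± 0.27 without KO3.

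**Figure D1:**
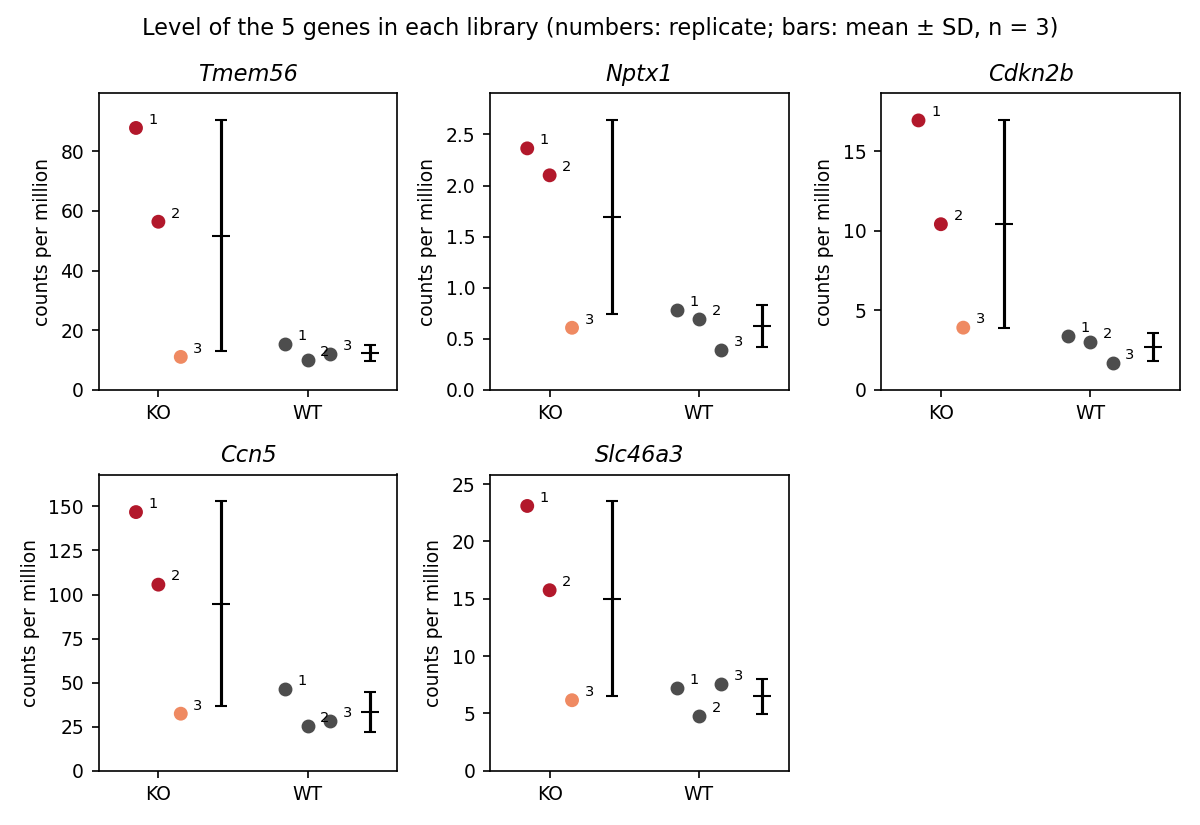
Levels of the 5 genes in CPM, with 1 point per library, labelled by replicate number, KO left of WT (KO1 and KO2 red, KO3 orange, WT grey) and black bars for the mean and SD of 3 libraries. In each panel KO1 is the highest point and KO2 the second, and KO3 lies near the WT points.

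KO1 was above KO2 for 5 of the 5 genes, by 1.13 times for Nptx1 to 1.63 times for Cdkn2b, an order the rule did not set. Over the 12936 genes that passed the same minimum, KO1 was above KO2 in 38.4%, with a median ratio of 0.97. The order was not particular to the 5. KO1 was also above KO2 for Akr1c18 (1.81 times), Onecut2 (1.41 times) and Inpp5j (1.39 times), which met the rule but were left out by name. Among genes not left out that stood between ratios of 1.5 and 2, KO1 was likewise above KO2, apart from Plekhg4 (0.977 times). KO3 was within the WT range for 4 of the 5 and above it for Cdkn2b. The summed level of the 5 genes was 277, 190 and 54 CPM in KO1, KO2 and KO3, against 73.2, 44 and 49.7 CPM in WT1, WT2 and WT3, so the sum in KO3 also lay among those of WT. In a bulk sample, fewer cells of a type and less RNA per cell cannot be told apart.

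Per length, in TPM (computed from the counts and the gene lengths in the files), Ccn5 was the most abundant and Nptx1 the least in every library. Ccn5 was at 211, 158 and 48.8 TPM in KO1, KO2 and KO3, against 69.9, 37.1 and 41.3 TPM in WT1, WT2 and WT3. Nptx1 was at 1.25, 1.16 and 0.337 TPM in KO1, KO2 and KO3, against 0.433, 0.372 and 0.210 TPM in WT1, WT2 and WT3. The remaining 3 lay between these 2 in every library. In KO1 they were Cdkn2b (33.6 TPM), Tmem56 (30.8 TPM) and Slc46a3 (25.9 TPM), and KO2 had the same order. Their order was not the same in all WT libraries, and KO3 had the order of WT2: Cdkn2b, Slc46a3, Tmem56.

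The test of KO against WT over all 18250 genes that passed the filter on low counts (edgeR, quasi-likelihood, p-values adjusted over all of them) called 40 genes, of which 23 (0.126%) were higher in KO. None of the 5 was among the genes called: their adjusted p-values lay between 0.445 and 0.582. At an unadjusted p under 0.05, 2 of the 5 were higher, Nptx1 and Cdkn2b, where 4.65% of all tested genes were higher and 9.16% passed in either direction. DESeq2 called 0 of the 5, with 0.665% of its genes called higher in KO. Without KO3, 2 of the 5 passed the adjusted threshold, Nptx1 (adjusted p = 0.000769 by edgeR) and Slc46a3 (adjusted p = 0.0457 by edgeR). Both were higher in KO, and 1.74% of all genes tested without KO3 were called higher. All 3 KO libraries were above all 3 WT libraries for 1 of the 5 and for 3.97% of all tested genes. The median log2 difference was 1.57 over the 5, against 0.0039 over all genes tested. The rule used this contrast, so nothing is read from these values.

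The 5 genes share neither a chromosome nor a gene family. All 5 are protein coding, as are 96.3% of the 12936 genes with at least 2 CPM in KO1 and KO2. Tmem56 lies at chr3:121201761-121283098, Nptx1 at chr11:119538719-119547753, Cdkn2b at chr4:89306289-89311032 and Slc46a3 at chr5:147878437-147894815, all on the minus strand of GRCm38. Ccn5 lies at chr2:163820861-163833146 on the plus strand. Of the 10 nearest protein-coding genes on either side, 9 were tested. EdgeR called 0 of these, against 0.219% of all tested genes, and DESeq2 0, against 0.665% of its genes called higher. At an unadjusted p under 0.05 in edgeR, 2 passed (Rptor higher, Mtus2 lower), against 9.16% of all tested genes in either direction. The log2 differences of the 9 ran from -0.42 (Mtus2) to 0.24 (Cdkn2a), and their highest ratio of KO1 and KO2 over the other libraries was 1.05. The 2 genes that overlap one of the 5 in the annotation were counted at most 1 time in any library.

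Cdkn2a, which encodes the kinase inhibitor p16 and also p19Arf, lies 11636 bases from Cdkn2b. It was at 0.370, 0.708 and 0.404 CPM in KO1, KO2 and KO3, against 0.421, 0.463 and 0.407 CPM in WT1, WT2 and WT3, with KO1 the lowest of all. Cdkn2c, which encodes the related inhibitor p18, was at 34.1, 31.4 and 31.1 CPM in KO1, KO2 and KO3, against 36.4, 31.2 and 30.5 CPM in WT1, WT2 and WT3, so the groups overlapped. Cdkn2b made up 38.4%, 27.5% and 13.7% of the 4 INK4 family genes per length in KO1, KO2 and KO3, against 10.5%, 10.4% and 6.09% in WT1, WT2 and WT3. None of the 6 other inhibitors (log2 differences from -0.11 to 0.24) and none of 13 genes of the cyclin D, CDK4, CDK6 and RB axis on which p15 acts (from -0.26 to 0.11) had both KO1 and KO2 above the other libraries. Ccnd2, the main D cyclin of granulosa cells in the mouse, was at 333, 389 and 412 CPM in KO1, KO2 and KO3, against 453, 366 and 395 CPM in WT1, WT2 and WT3.

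Ccn2, the connective tissue growth factor gene of the CCN family, ran the other way from Ccn5, at 262, 232 and 288 CPM in KO1, KO2 and KO3, against 307, 450 and 352 CPM in WT1, WT2 and WT3. The 3 KO libraries were all below the WT ones, with a log2 difference of -0.45 ± 0.16 (SE) that did not pass edgeR's test (adjusted p = 0.446). Ccn5 made up 38.3%, 32.5% and 10.5% of the 6 CCN genes per length in KO1, KO2 and KO3, against 14.7%, 6.32% and 7.99% in WT1, WT2 and WT3. Ccn3 had the highest ratio among all relatives of the 5 genes, 1.80, at 0.432, 0.472 and 0.182 CPM in KO1, KO2 and KO3, against 0.240, 0.168 and 0.204 CPM in WT1, WT2 and WT3. Those levels rest on at most 21 counts in a library.

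Slc46a1, the proton-coupled folate transporter gene and closest counted relative of Slc46a3, was at 24.7, 23.0 and 17.4 CPM in KO1, KO2 and KO3, against 18.2, 20.2 and 22.8 CPM in WT1, WT2 and WT3. KO2 and WT3 were almost level, and Slc46a3 made up 54.0%, 46.2% and 30.7% of the SLC46 family per length in KO1, KO2 and KO3, against 33.0%, 22.7% and 29.3% in WT1, WT2 and WT3. Nptx2, a second neuronal pentraxin gene, was at 5.02, 4.48 and 4.79 CPM in KO1, KO2 and KO3, against 5.25, 5.07 and 6.42 CPM in WT1, WT2 and WT3. For Nptx2, KO1 and WT2 were almost level, and the log2 difference of -0.17 ± 0.14 (SE) did not pass edgeR's test (adjusted p = 0.746). Nptx1 made up 10.04%, 8.92% and 2.70% of Nptx1, Nptx2 and the receptor gene Nptxr per length in KO1, KO2 and KO3, against 3.32%, 2.95% and 1.49% in WT1, WT2 and WT3.

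Of 14 other TLC domain genes, 6 had both KO1 and KO2 above the other libraries, by at most 1.13 times (Tlcd1). Tlcd1 was at 47.4, 37.4 and 26.7 CPM in KO1, KO2 and KO3, against 32.1, 27.3 and 33.0 CPM in WT1, WT2 and WT3. Cers6, a ceramide synthase gene, was at 121, 116 and 114 CPM in KO1, KO2 and KO3, against 92.7, 96.2 and 100 CPM in WT1, WT2 and WT3. The groups did not overlap for Cers6, with a log2 difference of 0.34 ± 0.07 (SE) that did not pass edgeR's test (adjusted p = 0.121). Over all 6 families, chosen after the genes were known, 42 of 46 relatives were tested and 0 were called by edgeR, against 0.219% of all tested genes. At an unadjusted p under 0.05, 2 were higher and 2 lower in KO. Of all tested genes, 4.65% were higher at that threshold and 9.16% passed in either direction. DESeq2 called 1 relative higher (Cers6) and 0 lower, against 0.665% of its genes called higher. Of the 37 relatives with 2 CPM in both KO1 and KO2, 6 had both above the other libraries, against 10.7% of the 12936 such genes.

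**Figure D2:**
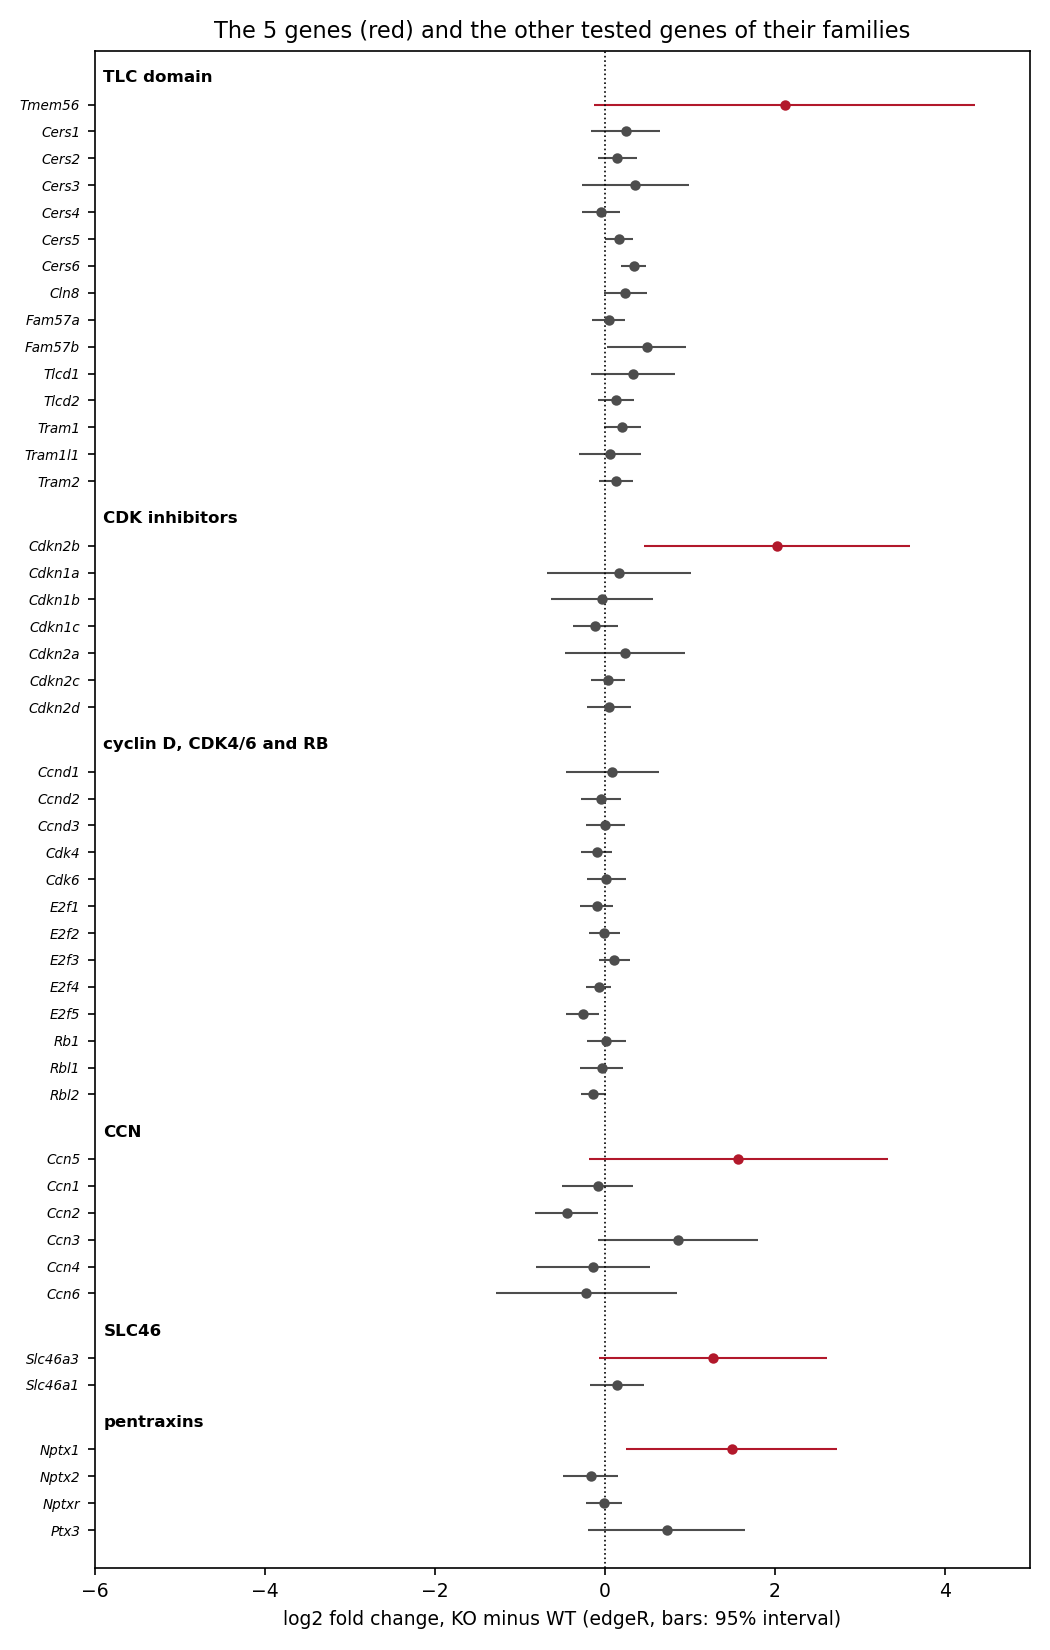
Log2 difference of KO minus WT from edgeR for the 5 genes (red) and the 42 tested relatives (grey), grouped by family, with bars for the 95% interval. The 5 genes lie at 1.27 to 2.12 and the relatives at -0.45 (Ccn2) to 0.86 (Ccn3), and the intervals of the 5 are wide.

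Whether the 5 genes are markers of another cell type was asked with 26 lists, 19 of cell types and 7 of pathways, holding 410 genes. None of the 5 was on any list. The lists were chosen with earlier results of these data known, so this absence cannot decide whether the 5 mark another cell type. Of the 363 list genes tested, edgeR called 1 higher in KO, Slc4a1 of the red blood cell list, and 2 lower, Amhr2 and Wt1 of the granulosa cell list, where 0.219% of all genes were called. Lists are described here by their summed levels and their counts.

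Luteal genes were at their highest in KO1 and KO2. The 14 genes, all of which were also counted in WT libraries, summed to 21843, 16475 and 12788 CPM in KO1, KO2 and KO3, against 13635, 10846 and 12239 CPM in WT1, WT2 and WT3, and KO3 lay among WT. Both KO1 and KO2 were above all other libraries for 8 of the 14, against 10.7% of all genes with 2 CPM in both, and the median log2 difference was 0.52, against 0.0039 over all genes tested. Akr1c18 and Star, both among the 8, had been named for leaving out, and the list was chosen with earlier results known. EdgeR called 0 of the 14. DESeq2 called 4 higher (Akr1c18, Fdx1, Prlr and Star), against 0.665% of its genes, and 8 were higher at an unadjusted p under 0.05 in edgeR, against 4.65% of all tested genes. Akr1c18, which encodes the enzyme that inactivates progesterone, was the list gene that met the rule: it was at 823, 455 and 65.8 CPM in KO1, KO2 and KO3, against 10.1, 12.9 and 5.91 CPM in WT1, WT2 and WT3. Cyp11a1, which encodes the enzyme of the first step of steroid synthesis, was at 5474, 4140 and 2667 CPM in KO1, KO2 and KO3, against 3355, 2985 and 3068 CPM in WT1, WT2 and WT3. KO1 and KO2 were the highest libraries, at a ratio of 1.23, and KO3 was below all WT libraries. Hsd3b1, which encodes the enzyme that makes progesterone, had a ratio of 1.09, and Scarb1, the receptor gene for high-density lipoprotein, 1.03. Fdx1, which encodes the electron carrier of Cyp11a1, was highest in KO3, at 1109 CPM.

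Endothelial genes were also at their highest summed level in KO1 and KO2, and at their lowest in KO3. The 32 genes summed to 747, 589 and 406 CPM in KO1, KO2 and KO3, against 549, 510 and 564 CPM in WT1, WT2 and WT3. Of the 28 with 2 CPM in both KO1 and KO2, 13 had both above the other libraries, against 10.7% of all such genes. None of the 32 reached a ratio of 2, and the median log2 difference was 0.25. EdgeR and DESeq2 called 0 of them, and 1 of 32 was higher at an unadjusted p under 0.05, against 4.65% of all tested genes. Cdh5, the endothelial cadherin gene, was at 56.2, 44.3 and 30.6 CPM in KO1, KO2 and KO3, against 44.5, 32 and 37.6 CPM in WT1, WT2 and WT3. KO2 and WT1 were level there, and Kdr (ratio 0.872), Cd34 (0.741) and Apln (0.682) did not have KO1 and KO2 both on top. Smooth muscle and pericyte genes summed to 439, 358 and 282 CPM in KO1, KO2 and KO3, against 350, 325 and 353 CPM in WT1, WT2 and WT3.

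Red blood cell genes summed to 2222, 1390 and 855 CPM in KO1, KO2 and KO3, against 437, 786 and 877 CPM in WT1, WT2 and WT3. Hbb-bs, the beta globin gene, was at 1277, 790 and 477 CPM in KO1, KO2 and KO3, against 237, 432 and 480 CPM in WT1, WT2 and WT3, so KO3 and WT3 were level and WT1 was lowest. The 4 globin genes had ratios of 1.59 to 1.69, under the 2 of the rule, and made up most of the sum. The other 16 genes summed to 102, 85.3 and 72.1 CPM in KO1, KO2 and KO3, against 57.7, 78.6 and 81.6 CPM in WT1, WT2 and WT3. Rhd (ratio 0.629), Gata1 (0.645), Tspan33 (0.693) and Klf1 (0.699) did not have KO1 and KO2 on top. The median log2 difference over the 17 tested genes was 0.69. Of the 9 genes with 2 CPM in both KO1 and KO2, 5 had both on top, against 10.7% of all such genes. At an unadjusted p under 0.05, 4 of the 17 were higher, against 4.65% of all tested genes, and edgeR and DESeq2 each called 1, Slc4a1. Slc4a1, which encodes the anion exchanger of red cells, was at 1.07, 1.09 and 0.808 CPM in KO1, KO2 and KO3, against 0.160, 0.189 and 0.346 CPM in WT1, WT2 and WT3, so it was high in KO3 too. Macrophage genes summed to 405, 331 and 230 CPM in KO1, KO2 and KO3, against 291, 321 and 364 CPM in WT1, WT2 and WT3.

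Mast cell genes were at low counts. Tpsb2, a mast cell tryptase gene, received 125, 71 and 20 counts in KO1, KO2 and KO3, against 15, 15 and 23 counts in WT1, WT2 and WT3. Cma1, a chymase gene, received 95, 74 and 13 counts in KO1, KO2 and KO3, against 25, 17 and 34 counts in WT1, WT2 and WT3. Cpa3, the mast cell carboxypeptidase gene, received 50, 43 and 9 counts in KO1, KO2 and KO3, against 16, 13 and 21 counts in WT1, WT2 and WT3. KO1 and KO2 were at least 2 times any other library for these 3 and for Fcer1a and Tpsg1, all under 2 CPM in KO1 or KO2. Mcpt1 and Mcpt9 were counted 0 times in every library, and of the 18 genes 8 were tested. EdgeR called 0 of these, against 0.219% of all tested genes, and DESeq2 1 (Tpsb2), against 0.665% of its genes called higher. Tpsb2 was also the 1 gene higher at an unadjusted p under 0.05 in edgeR, against 4.65% of all tested genes. Of the 3 list genes with 2 CPM in both KO1 and KO2, 0 had both above the other libraries, against 10.7% of all such genes. The list sum, 302, 318 and 300 CPM in KO1, KO2 and KO3 against 337, 308 and 371 CPM in WT1, WT2 and WT3, was mostly Slc18a2, a monoamine transporter gene at 272 to 347 CPM. Mcpt4, another chymase gene, received 13, 11 and 0 counts in KO1, KO2 and KO3, against 4, 8 and 13 counts in WT1, WT2 and WT3, so WT3 was level with KO1. Hdc, the histamine synthesis gene, was at 20.2, 19.9 and 14.1 CPM in KO1, KO2 and KO3, against 20.5, 23.1 and 20.0 CPM in WT1, WT2 and WT3.

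Platelet and megakaryocyte genes summed to 57.3, 52.7 and 48.6 CPM in KO1, KO2 and KO3, against 56.2, 54.0 and 52.9 CPM in WT1, WT2 and WT3. Itgb3, at 40.0 to 49.3 CPM, made up most of each sum. Both KO1 and KO2 were above the other libraries for 7 of the 12 genes. Of the 3 with 2 CPM in both, 1 had both on top, against 10.7% of all such genes. The median log2 difference over the 8 tested genes was 0.50. EdgeR and DESeq2 called 0 of them, and 3 were higher at an unadjusted p under 0.05 in edgeR, against 4.65% of all tested genes. Tubb1 and Gp9 reached a ratio of 2 with at most 24 counts in any library. Pf4, the platelet factor gene, was at 4.24, 3.75 and 2.61 CPM in KO1, KO2 and KO3, against 2.42, 2.78 and 2.87 CPM in WT1, WT2 and WT3. The summed levels of the luteal, endothelial and red blood cell lists were highest in KO1 and KO2, as were the 5 genes. The same held for the smooth muscle and pericyte list. It also held for the pathway lists of steroidogenesis, of cholesterol uptake and synthesis, and of STAT5 and prolactin targets. The mast cell and platelet sums did not have both on top, but each was mostly a single gene, Slc18a2 or Itgb3. These sums therefore do not describe the other genes of their lists. The part of such cells in the levels of the 5 genes was not tested, and membership in the lists assigns none of the 5 to a cell type.

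**Figure D3:**
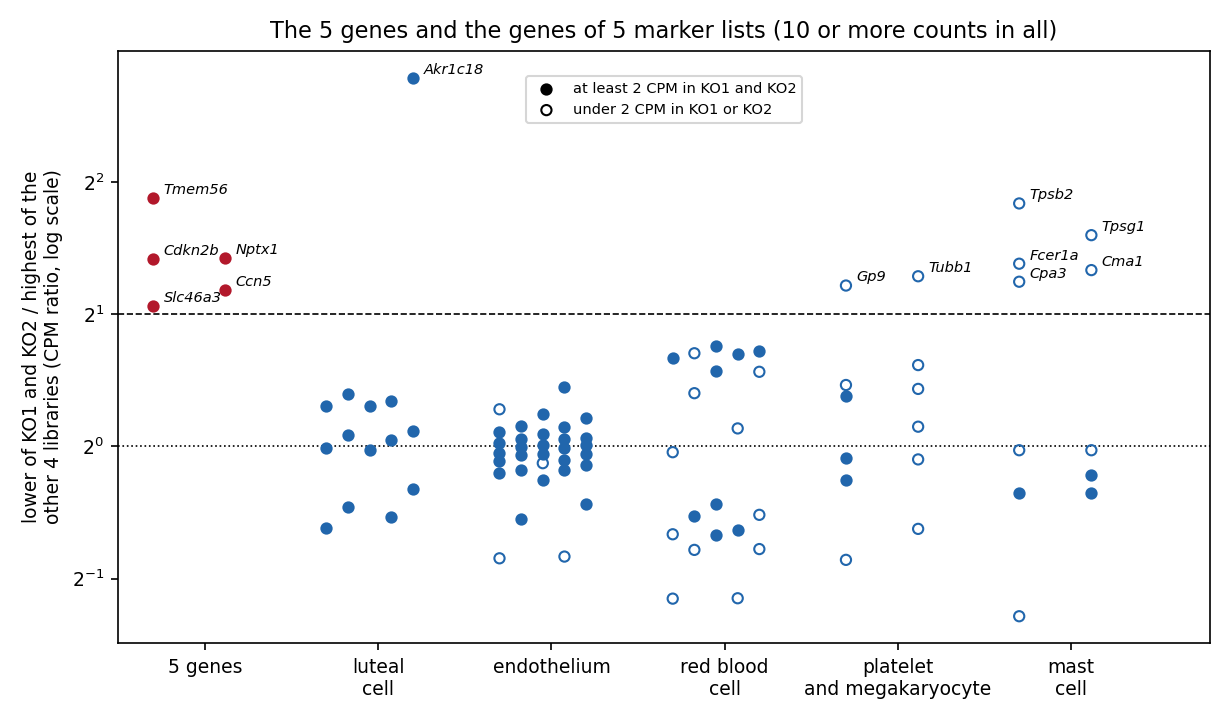
For the 5 genes (red) and the genes of 5 marker lists (blue) with at least 10 counts, the lower CPM of KO1 and KO2 divided by the highest CPM of the other 4 libraries, on a log scale, with lines at 1 (dotted) and 2 (dashed). Open points are genes under 2 CPM in KO1 or KO2. Apart from the 5 genes, Akr1c18 is the one filled point above 2.

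The threshold of 2 cut a continuous range. Of the 5 genes, Slc46a3 (ratio 2.08), Ccn5 (2.27) and Cdkn2b (2.67) were nearest inside it. Just outside were the predicted gene Gm31135 (1.95), Cyyr1 (1.94), S100a4 (1.89) and Prune2 (1.88). Cyyr1, whose membrane protein is little characterised, was at 12.3, 6.25 and 2.65 CPM in KO1, KO2 and KO3, against 3.23, 1.24 and 2.08 CPM in WT1, WT2 and WT3. S100a4, which encodes a calcium-binding protein of motile cells, was at 12.2, 7.43 and 2.65 CPM in KO1, KO2 and KO3, against 3.89, 3.93 and 3.77 CPM in WT1, WT2 and WT3. In both genes KO1 was the highest library and KO3 lay within or below the WT libraries. Prune2 was at 11.8, 11.4 and 5.98 CPM in KO1, KO2 and KO3, against 4.71, 6.06 and 5.89 CPM in WT1, WT2 and WT3, with KO1 and KO2 nearly level. Besides these 4, another 17 genes that were not left out by name stood between ratios of 1.5 and 2.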

How the data were processed

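RNA was sequenced from 3 KO and 3 WT libraries of mouse granulosa cells. The authors deposited raw counts per gene with gene lengths; reads were trimmed with Trimmomatic 0.36, aligned to GRCm38 with STAR 2.5.2b and counted with featureCounts of Subread 1.5.2, per the submitters' processing notes. The annotation release, strand setting and handling of multiply mapped reads were not given in the sources used here. The gene IDs were matched to GENCODE M21 (49056 of 49315). CPM is the count divided by the library's total count, on the usual scale. The totals, 42379018 to 49901493, set the precision of low genes.

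KO was compared with WT with edgeR 4.0.16 in R 4.3.3 (quasi-likelihood test, TMM scaling, filterByExpr, Benjamini-Hochberg adjustment, threshold 0.05), without covariates, and with DESeq2 1.42.0 as an alternative. The fits were tested on simulated data. Other scalings, filters, thresholds of the rule, a replicate block and leaving out each library were tried. Of the 6 genes under the rule, 1 is not reported here. The genes, lists, families and motifs were chosen with earlier results of these data known. Named genes were set by rule: the other 5 members of the set, the 3 nearest inside and outside the ratio (predicted genes aside), the 4 most abundant genes of the luteal, endothelial, red blood cell, platelet and mast cell lists, and Kdm6b. Gm31135, relatives, neighbours, remaining list genes and markers of KO3 (Areg, Ereg, Pgr) were chosen after their values were seen.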

Additional observations from a re-analysis of the deposited data

How the results depend on the processing

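The number of genes under the rule was 6 with the total count as library size and with TMM scaling, 7 with DESeq2's size factors, 8 at a minimum of 1 CPM and 5 at 5 CPM. It was 27 at a ratio of 1.5, 1 at a ratio of 3 (Tmem56) and 3 when the exact Poisson bounds of the counts had to meet the rule (Tmem56, Cdkn2b and Ccn5). Leaving out a library gave 7 (without WT2) to 16 (without KO3) genes, with 8 without WT1 and 10 without WT3. None of the 5 genes described was called under any other scaling, filter, DESeq2 or the block, and leaving out a library gave 0 to 2 called, the 2 without KO3. Over 60 alternatives of the 5 log2 differences, 0 changed sign. Genes called numbered 40 in all, 221 by DESeq2, 199 with no filter and 21 with a filter at a mean of 1 CPM, and 8 (without WT2) to 421 (without KO3) when a library was left out, with 26 without KO1, 36 without KO2, 17 without WT1 and 9 without WT3. List genes called numbered 3 in all, 17 by DESeq2, 14 with no filter and 0 (without WT2) to 38 (without KO3) when a library was left out. Of family relatives, 0 were called in the main fit, 1 by DESeq2, 1 with no filter and 3 without KO3. The log2 difference of Kdm6b was 0.26 over all libraries and -0.038 (without KO3) to 0.40 (without KO1) when a library was left out. The cause of these changes was not tested. With the replicate number as a block, 15 genes were called. Deviations from the group means of same-numbered libraries had correlations of -0.0165, 0.074 and -0.0326, so the numbers were not taken to pair them. Depth limits the values of genes near or under 1 CPM, which stood for 42.4 to 49.9 counts, such as Nptx1, Ccn3 and the mast cell and platelet genes.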
